A study of Mus musculus with 4 samples.

Results

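The genes described here are 10 markers of endothelial cells, the cells that line blood vessels and the inner surface of the heart. The members are *Pecam1*, *Cdh5*, *Kdr*, *Flt1*, *Tek*, *Tie1*, *Vwf*, *Cldn5*, *Emcn* and *Egfl7*. They were taken by exact symbol from a table of 55401 genes, with no use of their values, and each symbol matched 1 row. RNA was sequenced from 4 heart samples of mice at 8 weeks of age. Of these, 2 were wild-type and 2 carried the *Ctcf* +/R567W genotype, with 1 library each. Heterozygous mice carry the CTCF-R567W substitution, made by CRISPR/Cas9 editing on a C57BL/6N background, on one allele and a normal allele on the other. The labels name no further treatment for either genotype, and polyA RNA of heart tissue was used. The allele is carried in the germline, so it is not limited to endothelium. The labels give neither sex nor the part of the heart taken, and do not state that replicates are separate animals, so p-values measure only the spread between these samples.

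Endothelial cells are held to each other by junction proteins, receive growth and survival signals through receptor tyrosine kinases, and carry the clotting and adhesion proteins that meet the blood. In adult heart muscle nearly every myocyte lies next to a capillary, so endothelial transcripts form a regular part of a heart library. In bulk tissue, fewer cells of a type and less RNA per cell cannot be told apart, which holds for every level below.

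Values are TPM, the abundance of a gene's transcripts per length and per library total, which can be compared between genes. Depth cannot be read from TPM and is unknown, and no counting interval is given. The mt- genes of the mitochondrial genome took between 61.1% and 68.6% of the TPM, so the TPM were put on one scale with median-of-ratios factors. The divisors were 1.09 and 1.26 for wild-type and 0.818 and 0.903 for heterozygous hearts. Paired values always name replicate 1 first. Values after this division are called scaled TPM. The cardiomyocyte markers *Myh6* and *Tnnt2* were between 9133 and 10554 and between 1460 and 1927 scaled TPM. *Ctcf* itself was at 6.12 and 6.02 scaled TPM in wild-type and 7.51 and 5.76 in heterozygous hearts, and TPM do not tell the alleles apart.

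Promoter sequence is shown for 5 of the members, because these 5 are members whose genotypes did not overlap and for which RefSeq (GRCm38.p6) gave a start. *Kdr*, *Flt1* and *Cldn5* were lower in both heterozygous hearts and *Tie1* and *Egfl7* were higher. Each run is the 250 bases before the RefSeq transcription start, 5′ to 3′ on the gene's strand. The gene coordinates given below come from another annotation. Those of *Tie1* end at 118490061, so its window lies partly within the gene as placed there. Capitals mark GGAAG, or CTTCC where it lies on the other strand. ETS factors, a family with endothelial members such as *Erg* and *Fli1*, are known to bind around the shorter core GGAA, so cores followed by another base are not marked or counted.
*Kdr*, chr5:75978456-75978705, minus strand: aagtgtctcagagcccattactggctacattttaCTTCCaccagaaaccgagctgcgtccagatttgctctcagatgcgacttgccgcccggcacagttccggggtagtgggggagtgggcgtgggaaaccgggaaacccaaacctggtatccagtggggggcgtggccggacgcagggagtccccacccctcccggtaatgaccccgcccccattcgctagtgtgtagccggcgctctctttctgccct
*Flt1*, chr5:147726012-147726261, minus strand: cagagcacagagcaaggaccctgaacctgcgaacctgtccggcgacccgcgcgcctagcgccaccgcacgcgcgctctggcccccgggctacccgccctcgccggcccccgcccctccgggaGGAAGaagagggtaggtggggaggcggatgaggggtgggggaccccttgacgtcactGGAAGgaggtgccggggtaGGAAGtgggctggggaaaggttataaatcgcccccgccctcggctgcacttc
*Cldn5*, chr16:18776597-18776846, plus strand: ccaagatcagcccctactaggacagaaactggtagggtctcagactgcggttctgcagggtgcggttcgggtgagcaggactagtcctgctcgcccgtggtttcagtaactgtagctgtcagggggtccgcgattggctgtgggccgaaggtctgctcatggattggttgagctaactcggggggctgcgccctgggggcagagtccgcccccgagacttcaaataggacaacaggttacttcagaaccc
*Tie1*, chr4:118489850-118490099, minus strand: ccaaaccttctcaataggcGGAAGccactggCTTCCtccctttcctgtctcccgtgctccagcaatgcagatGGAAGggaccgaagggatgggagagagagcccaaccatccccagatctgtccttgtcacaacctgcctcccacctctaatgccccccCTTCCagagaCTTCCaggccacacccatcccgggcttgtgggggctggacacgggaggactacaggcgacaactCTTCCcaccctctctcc
*Egfl7*, chr2:26583615-26583864, plus strand, the middle of 3 annotated starts: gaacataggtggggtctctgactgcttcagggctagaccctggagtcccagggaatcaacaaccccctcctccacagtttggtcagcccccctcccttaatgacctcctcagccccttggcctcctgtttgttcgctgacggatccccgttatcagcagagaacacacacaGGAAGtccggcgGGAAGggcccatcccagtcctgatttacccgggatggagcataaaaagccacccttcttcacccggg
The matches on both strands numbered 6 in *Tie1*, 3 in *Flt1*, 2 in this *Egfl7* window, 1 in *Kdr* and 0 in *Cldn5*. Of 32851 mouse promoter windows of this length, 64.1% held at least 1 match and 29.4% at least 2. The windows of *Tek* and *Emcn* held 0 and 2 matches. The other *Egfl7* starts had 4 and 0. A match is only a run of letters, and the windows with few or none say nothing about binding. *Pecam1*, *Cdh5* and *Vwf* had no entry.

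The libraries compare adult hearts with and without the mutant allele, a question the study raised about contraction. Here the same comparison is given for endothelial transcripts. All 10 members had a mean of at least 1 TPM over the 4 hearts and were among the 10036 genes tested, and 0 of the 10 were called. A call needed a Benjamini-Hochberg adjusted p under 0.05 over all tested genes from limma and a fold change over 1.5, which 0.0199% of tested genes met (2 genes, both lower in heterozygous hearts). The estimates of the members had both signs, and differences between members were not tested. Of the 10, 7 had a lower and 3 a higher mean log2 value in heterozygous hearts, with log2 fold changes from -0.50 to 0.39 and a median of -0.09, beside a median of 0.00 over all tested genes. For 4 members each heterozygous heart had less than either wild-type heart, as was so for 23.3% of all tested genes, and for 2 members each had more, as for 23.7%. An unadjusted p under 0.05 was reached by 2 members in the lower direction (5.71% of tested genes) and by 0 in the higher direction (6.49%).

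**Figure D1:**
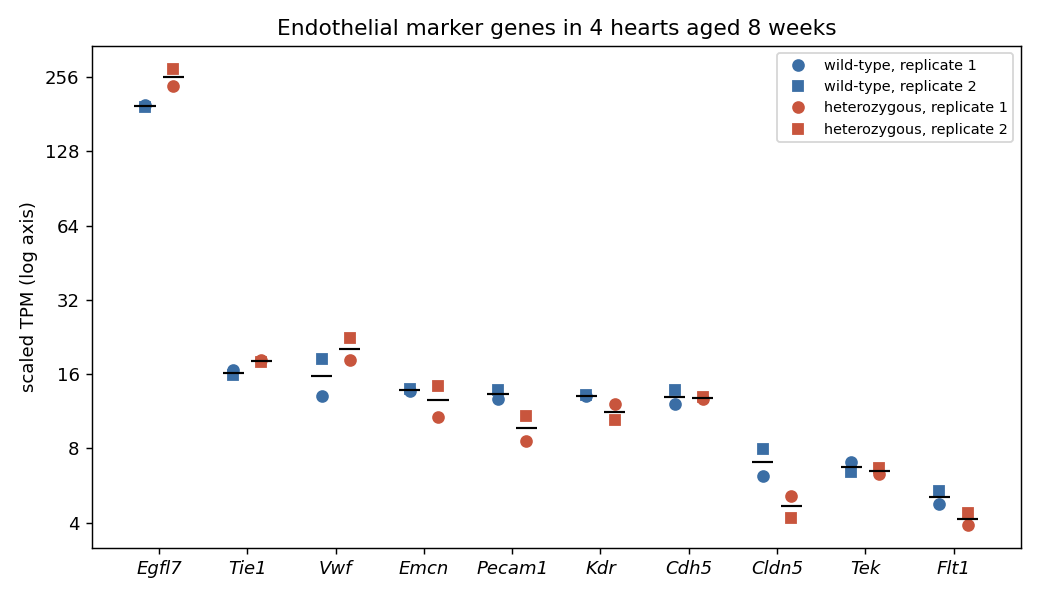
Scaled TPM (log axis) of the 10 endothelial marker genes in each heart, ordered by the wild-type mean; circles and squares are replicates 1 and 2 and bars are genotype means (n = 2). *Pecam1*, *Cldn5*, *Kdr* and *Flt1* lie lower in both heterozygous hearts, *Tie1* and *Egfl7* higher, and *Egfl7* stands far above the other 9.

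*Pecam1* and *Cldn5*, which encode proteins of endothelial cell-cell contacts, had the lowest values relative to wild type. *Pecam1* (chromosome 11, 106654217 to 106750628, mm10), the adhesion molecule also known as CD31, was at 12.7 and 13.8 scaled TPM in wild-type hearts and 8.54 and 10.8 in heterozygous hearts. The genotypes did not overlap, and the heterozygous mean of 9.68 ± 1.62 was 27.1% under the wild-type mean of 13.3 ± 0.799 (SD, n = 2 each). Its log2 fold change was -0.43 (standard error 0.17, 95% interval -0.83 to -0.02), with an adjusted p of 0.394 from limma. *Cldn5* (chromosome 16, 18776847 to 18778262), the main claudin of endothelial tight junctions, was at 6.15 and 7.96 scaled TPM in wild-type and 5.14 and 4.18 in heterozygous hearts. The genotypes did not overlap, but the gap between them was smaller than the gap between the wild-type hearts. The *Cldn5* difference was -0.50 on the log2 scale (standard error 0.17, 95% interval -0.92 to -0.09, limma adjusted p = 0.362).

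*Cdh5* (chromosome 8, 104101625 to 104144511), which encodes VE-cadherin, the adhesion protein of endothelial adherens junctions, showed no such difference. It was at 12.1 and 13.8 scaled TPM in wild-type and 12.6 and 12.9 in heterozygous hearts. Both heterozygous values lay between the wild-type values, and the log2 fold change was -0.02 (95% interval -0.38 to 0.35, adjusted p = 0.973 from limma). Among the junction genes the estimate was thus near 0 for *Cdh5* and lower for *Pecam1* and *Cldn5*. The 95% interval of *Cdh5* overlaps those of the other genes, and the difference between them was not tested. The antisense gene *Gm29682* overlaps *Cdh5* and was listed at 0 in all hearts.

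Among the VEGF receptors, *Kdr* (chromosome 5, 75932827 to 75978458) encodes VEGFR2, the main signalling receptor for VEGF-A, and was at 13.1 and 13.1 scaled TPM in wild-type and 12.0 and 10.4 in heterozygous hearts. *Flt1* (chromosome 5, 147561604 to 147726011) encodes VEGFR1, which binds VEGF-A tightly and whose soluble form acts as a decoy, and was at 4.77 and 5.35 against 3.91 and 4.36. Both receptors were lower in both heterozygous hearts, yet neither fold change was outside its error. The log2 fold change was -0.21 for *Kdr* (95% interval -0.57 to 0.16, adjusted p = 0.585 from limma) and -0.24 for *Flt1* (95% interval -0.57 to 0.10, adjusted p = 0.506). TPM per gene do not separate the soluble from the membrane form of *Flt1*.

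The angiopoietin receptor genes had smaller differences, with intervals that overlap those of the VEGF receptors. *Tek* (chromosome 4, 94739289 to 94874976) encodes TIE2, the receptor that binds angiopoietins, and was at 7.03 and 6.398 scaled TPM in wild-type and 6.28 and 6.64 in heterozygous hearts, with a log2 fold change of -0.05 (95% interval -0.38 to 0.29, adjusted p = 0.904 from limma). *Tie1* (chromosome 4, 118471191 to 118490061), an orphan receptor that forms complexes with TIE2, was at 16.6 and 15.9 against 18.2 and 17.9. *Tek* overlapped between genotypes, whereas both heterozygous hearts exceeded both wild-type hearts for *Tie1*. The log2 fold change of *Tie1* was small, at 0.14 (95% interval -0.21 to 0.50, adjusted p = 0.700 from limma), and it was -0.28 with TPM as deposited.

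The glycoprotein genes *Vwf* and *Emcn* overlapped between genotypes. *Vwf* (chromosome 6, 125546774 to 125686679) encodes von Willebrand factor, a clotting protein stored in endothelial cells of larger vessels and the endocardium, and in platelets. It was at 13.1 and 18.4 scaled TPM in wild-type and 18.2 and 22.4 in heterozygous hearts, so the lower heterozygous heart lay just under the higher wild-type heart. The wild-type hearts alone differed by 1.41 times, and the log2 fold change of 0.36 had a 95% interval of -0.14 to 0.86 (adjusted p = 0.504 from limma). Leaving out 1 heart moved it between 0.12, without wild-type replicate 1, and 0.59, without wild-type replicate 2. *Emcn* (chromosome 3, 137341067 to 137432185), a sialomucin of capillary and venous endothelium, was at 13.6 and 13.9 in wild-type and 10.7 and 14.4 in heterozygous hearts. Here heterozygous replicate 1 stood low and replicate 2 above both wild-type hearts, a ratio of 1.34 within the genotype (log2 fold change -0.14, 95% interval -0.57 to 0.30, adjusted p = 0.771 from limma).

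*Egfl7* (chromosome 2, 26580014 to 26593120), a secreted protein that endothelial cells lay down in the vessel wall, was the most abundant member by far, at 196.5 and 193.3 scaled TPM in wild-type and 234.8 and 277.0 in heterozygous hearts. The wild-type hearts were nearly equal and both heterozygous hearts were higher, by 31.3% on average. Its log2 fold change was 0.39 (standard error 0.19, 95% interval -0.07 to 0.84, adjusted p = 0.448 from limma). With TPM as deposited the sign of the *Egfl7* difference turned (-0.06). The gene also holds the endothelial microRNA miR-126, whose mature 3p strand from RefSeq is shown with its seed, bases 2 to 8, in capitals because the host transcript is what was measured here.
mmu-miR-126a-3p, chr2:26591402-26591423, plus strand: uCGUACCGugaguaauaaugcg
The row of *Mir126a* was listed at 0 in all 4 libraries. These are libraries of polyA RNA, so neither that 0 nor the *Egfl7* values say anything of the mature microRNA. *Gm20532*, which overlaps *Egfl7* by 6482 bases on the same strand, was also listed at 0. *Agpat2* overlaps the end of *Egfl7* by 64 bases on the opposite strand and was at 9.80 and 12.8 scaled TPM in wild-type and 7.78 and 8.51 in heterozygous hearts. The sources used here do not say that strand was used in counting, so reads in those 64 bases cannot be assigned.

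The order of levels put *Egfl7* first and *Flt1* last in both genotypes. In wild-type hearts the means of scaled TPM ran from *Egfl7* (194.9) through *Tie1* (16.2), *Vwf* (15.7), *Emcn* (13.7), *Pecam1* (13.3), *Kdr* (13.1) and *Cdh5* (12.9) to *Cldn5* (7.06), *Tek* (6.72) and *Flt1* (5.06). The hearts separated neighbours at 3 places only, after *Egfl7*, between *Cdh5* and *Cldn5*, and between *Tek* and *Flt1*; the values of all other neighbours overlapped. In heterozygous hearts *Vwf* (20.3) stood above *Tie1* (18.0), *Cdh5* (12.8) and *Emcn* (12.5) above *Kdr* (11.2) and *Pecam1* (9.68), and *Tek* (6.46) above *Cldn5* (4.66) and *Flt1* (4.14). Here the hearts separated *Egfl7* from *Vwf*, *Vwf* from *Tie1*, *Tie1* from *Cdh5*, *Pecam1* from *Tek* and *Tek* from *Cldn5*, and the other neighbours overlapped. *Pecam1* thus moved from just above to under *Cdh5* and *Kdr*, and *Cldn5* from just above *Tek* to under it.

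The size and sign of these differences depend on the reference level. With TPM as deposited all 10 members were lower in heterozygous hearts, but over all tested genes the median was then -0.35, and the same 7 members lay under that median and 3 over it. With mt- genes removed and TPM rescaled, the median of all genes was -0.31 and 8 members were lower. Relative to the median of all genes, *Tie1*, *Vwf* and *Egfl7* were higher by 0.07, 0.29 and 0.29 with TPM as deposited and by 0.13, 0.35 and 0.36 with mt- genes removed. No member was called under either scaling, and the smallest adjusted p of a member was 0.0891 and 0.0703 in that order (*Pecam1*, limma; for TPM as deposited *Cldn5* had the same value).

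**Figure D2:**
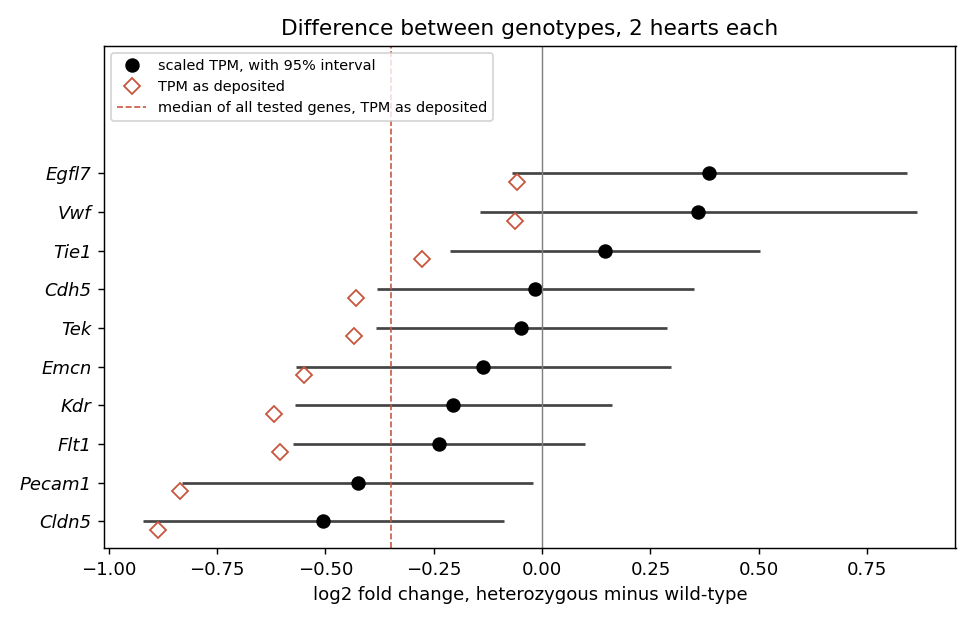
Log2 fold change (heterozygous minus wild-type, 2 hearts each) of each member with its 95% interval from limma on scaled TPM, and the value with TPM as deposited (diamonds). The intervals of *Pecam1* and *Cldn5* lie under 0 before adjustment, the other 8 hold 0, and the diamonds of *Egfl7*, *Vwf* and *Tie1* lie under 0 but to the right of the median of all tested genes at -0.35.

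Ratios between members within a heart do not depend on any scaling. *Cdh5* was taken as the common reference, a choice made after the values were seen, and all ratios share its error. Of the 9 ratios over *Cdh5*, 3 were lower in both heterozygous hearts, 3 were higher in both and 3 overlapped. Of all tested genes taken singly, 23.3% were lower and 23.7% higher in both. No such share was computed for ratios of other genes. *Pecam1* had 1.05 and 1.002 times the TPM of *Cdh5* in wild-type hearts and 0.675 and 0.839 times in heterozygous hearts. *Cldn5* had 0.510 and 0.576 times against 0.406 and 0.324 times, and *Flt1* 0.395 and 0.387 times against 0.309 and 0.338 times. These 3 genes were thus low beside *Cdh5* in both heterozygous hearts.

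The ratios that were higher were those of *Tie1*, *Vwf* and *Egfl7*. *Egfl7* had 16.3 and 14.0 times the TPM of *Cdh5* in wild-type hearts and 18.6 and 21.5 times in heterozygous hearts. *Tie1* had 2.36 and 2.48 times the TPM of *Tek* in wild-type hearts and 2.90 and 2.697 times in heterozygous hearts, so this ratio was higher in both. The ratio of *Kdr* to *Flt1* did overlap, at 2.74 and 2.45 against 3.08 and 2.39. Among the ratios computed, the largest log2 difference was that of *Egfl7* to *Pecam1*, a pair chosen for its difference. These ratios were 15.5 and 14.0 in wild-type and 27.5 and 25.6 in heterozygous hearts. Not every pair of members was computed. The smallest two-sided p that an exact permutation of 2 against 2 hearts allows is 0.333, so none of these ratios was tested.

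**Figure D3:**
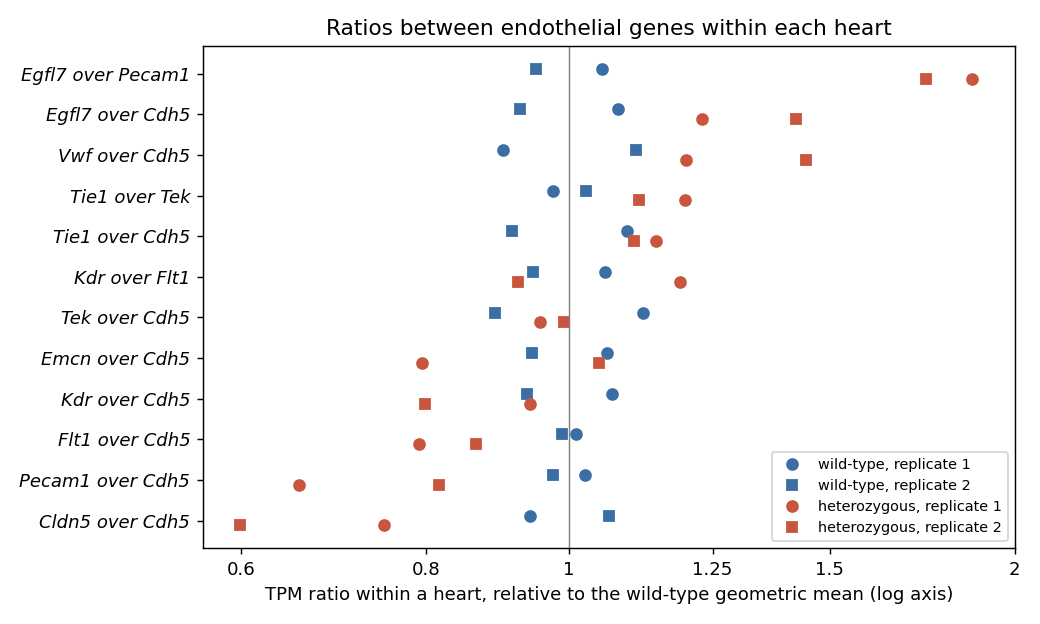
TPM ratios between endothelial genes within each heart, each divided by the geometric mean of its wild-type values (log axis), so that no scaling between libraries enters. Heterozygous hearts lie to the left for *Cldn5*, *Pecam1* and *Flt1* over *Cdh5* and to the right for *Egfl7*, *Vwf* and *Tie1* over *Cdh5*, for *Tie1* over *Tek* and for *Egfl7* over *Pecam1*.

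Heart by heart, no single library held the endothelial transcripts low or high throughout. The lowest value of a member fell in wild-type replicates 1 and 2 for 2 members each, in heterozygous replicate 1 for 4 and in heterozygous replicate 2 for 2. The highest fell in wild-type replicate 2 for 5 members and in heterozygous replicate 2 for 3. The geometric mean of the 10 genes, in which each weighs the same, was 13.7 and 14.9 scaled TPM in wild-type hearts and 12.99 and 14.0 in heterozygous hearts. These means overlapped between genotypes. The plain sum was 295.6 and 301.9 against 330.5 and 381.0 scaled TPM, but *Egfl7* made up between 64.02% and 72.7% of it. Without *Egfl7* the sum was 99.1 and 108.6 in wild-type and 95.7 and 104.0 in heterozygous hearts, again overlapping.

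Set against the muscle cells, the geometric mean of the members was 1.75% and 1.99% of that of 12 cardiomyocyte markers in wild-type hearts and 2.0% and 1.93% in heterozygous hearts. Against 12 fibroblast markers it was 222.3% and 200.4% against 224.0% and 233.3%. Wild-type replicate 1 and heterozygous replicate 1 were nearly equal on the second measure, and on the first measure both heterozygous hearts were near wild-type replicate 2.

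The other cell types of the tissue give the setting of these values. Over all tested genes 23.3% were lower and 23.7% higher in both heterozygous hearts. Of 12 cardiomyocyte markers 5 were lower (41.7%) and 1 higher (median log2 fold change -0.19), of 12 fibroblast markers 4 (33.3%) and 1 (-0.17), of 11 tested mural markers 3 (27.3%) and 1 (-0.11) and of 9 tested macrophage and immune markers 3 (33.3%) and 0 (-0.03). Each of these medians was, like that of the endothelial markers, under the median of all tested genes. The 3 lower macrophage and immune markers include *Cd163*, at 1.61 and 1.53 TPM as deposited in wild-type and 0.78 and 0.94 in heterozygous hearts. It had a mean of at least 1 TPM only through the wild-type hearts. Summed scaled TPM were 168.5 and 221.0 in wild-type and 148.5 and 172.3 in heterozygous hearts for fibroblasts, 133.0 and 122.3 against 102.1 and 140.1 for mural cells, and 50.9 and 54.8 against 39.1 and 54.6 for macrophages and immune cells.
Heterozygous replicate 1 was the lowest heart for each of these 3 sums, and 4 of the 10 members also had their lowest value in it.

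Blood differed in 1 heart. The sum of 8 erythroid genes was 931.8 and 988.8 scaled TPM in wild-type hearts, 966.5 in heterozygous replicate 1 and 2123 in heterozygous replicate 2. In the last heart *Egfl7*, *Vwf*, *Emcn* and *Pecam1* were between 1.18 and 1.34 times their level in heterozygous replicate 1, while *Kdr* and *Cldn5* were at 0.866 and 0.815 times. *Vwf* and *Pecam1* are also made by platelets and their precursors. Of 12 platelet genes only 3 passed the filter on low values, and their sum over all 12 was 13.3 and 16.7 scaled TPM in wild-type and 11.1 and 16.8 in heterozygous hearts. The part of blood cells in the members' values was not tested.

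**Figure D4:**
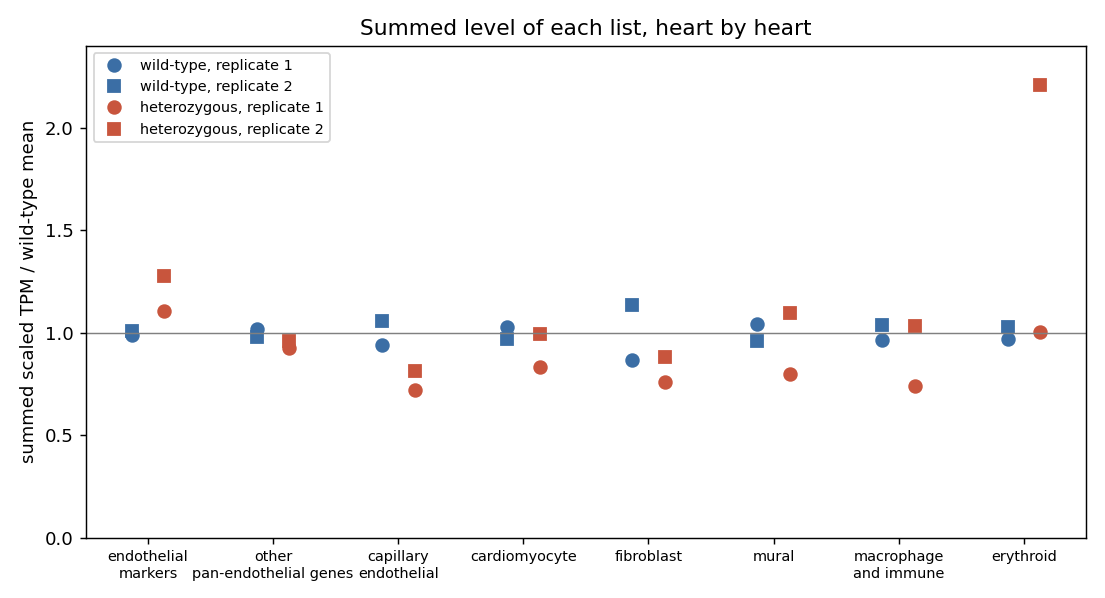
Summed scaled TPM of each gene list in each heart, divided by the mean of the wild-type hearts. The endothelial marker sum follows *Egfl7*, and the erythroid list stands at 2123 scaled TPM in heterozygous replicate 2, beside 931.8 to 988.8 in the other hearts. The capillary list lies lower in both heterozygous hearts (650.8 and 733.3 in wild-type against 500.5 and 563.2). *Fabp4* is the largest part of that sum, at 376.8 and 411.9 against 288.9 and 328.4.

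Wider endothelial lists, counted without the 10 members, held no called gene either. In all, 203 genes were listed beside the members, markers of other cell types included, of which 156 were tested and 0 called by limma (at an unadjusted p under 0.05, 9 were lower and 8 higher). The 9 include *Angptl4* and *Clec14a*, which passed the filter on low values only through the wild-type hearts. Among 24 other pan-endothelial genes, 7 were lower in both heterozygous hearts (29.2%, beside 23.3% of all tested genes) and 3 were higher in both (12.5%, beside 23.7%), with a median log2 fold change of -0.07. The 7 include *Clec14a*, at 1.63 and 1.78 TPM as deposited in wild-type and 0.75 and 0.83 in heterozygous hearts. The largest differences were those of *Adgrf5*, an adhesion receptor (-0.49, standard error 0.24), and *Myct1* (-0.40, standard error 0.16) in the lower direction, and of *Rasip1*, a regulator of vessel lumen formation (0.41, standard error 0.15), and *Mmrn2*, a matrix protein (0.29, standard error 0.13), in the higher. With TPM as deposited *Rasip1* and *Mmrn2* were at -0.00 and -0.08, above the median of -0.35 over all tested genes. As among the members, estimates in both directions occurred within the list, and differences between its genes were not tested.

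The main ligands of the members' receptors overlapped between genotypes. *Vegfa*, the ligand of both VEGF receptors, was at 342.3 and 285.4 scaled TPM in wild-type and 359.2 and 260.7 in heterozygous hearts, and *Angpt1*, the activating ligand of TIE2, at 1.19 and 2.13 against 1.91 and 1.67. Both were named for their role and not by the rule. *Vegfb*, which binds VEGFR1, was at 38.0 and 38.4 against 27.9 and 37.5 (log2 fold change -0.23, standard error 0.19). Of the 11 tested genes of this list, 4 were lower (36.4%, beside 23.3% of all tested genes) and 1 was higher (9.09%, beside 23.7%) in both heterozygous hearts. The higher gene, *Plxnd1*, was at 57.5 and 60.2 scaled TPM in wild-type and 99.9 and 68.8 in heterozygous hearts. Its log2 fold change was 0.49 (standard error 0.22), and 0.05 with TPM as deposited. The 4 lower genes include *Angptl4*, kept by the filter as told below, so their share is given as a description only. *Angptl4*, an inhibitor of lipoprotein lipase that shares the angiopoietin fold but binds no TIE receptor, was at 3.18 and 1.75 against 0.465 and 0.255 scaled TPM. It passed the filter on low values only through the wild-type hearts, so a gene kept in this way had to differ, and its values are given as a description. Its difference of -1.32 on the log2 scale (standard error 0.22) was the lowest of all the lists. It was -1.54 with TPM as deposited and -1.57 without wild-type replicate 2. Because of the filter, no p-value is read for this gene.

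Capillary genes had the lowest median of the endothelial lists, at -0.27. Of 12 tested, 7 were lower in both heterozygous hearts (58.3%, beside 23.3% of all tested genes) and 1 was higher (8.33%, beside 23.7%). By mean log2 value 8 were lower and 4 were higher. The higher ones were *Tcf15* (0.32), *Car4* (0.16), *Meox2* (0.16) and *Rgcc* (0.07). *Lpl*, lipoprotein lipase, was at 89.0 and 109.4 scaled TPM in wild-type and 52.9 and 66.5 in heterozygous hearts (log2 fold change -0.72, standard error 0.21, adjusted p = 0.335 from limma). *Cd36*, a fatty acid transporter, was at 40.0 and 51.2 against 30.9 and 26.8 (-0.64, standard error 0.19, adjusted p = 0.341). Both genes were lower in each heterozygous heart than in either wild-type heart, and cardiomyocytes also make them. *Meox2*, a transcription factor of heart capillaries, was the 1 gene higher in both (0.16, standard error 0.14). With TPM as deposited it was at -0.18, above the median of -0.35 over all tested genes.

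The lists of endothelial transcription factors and of Notch and BMP genes had medians of 0.04 and 0.10. Of 18 tested factors 4 were lower (22.2%) and 5 higher (27.8%) in both heterozygous hearts, near the shares of 23.3% and 23.7% over all tested genes. *Klf2*, which flowing blood is known to induce in endothelium, was at 4.18 and 4.94 scaled TPM in wild-type and 9.24 and 7.15 in heterozygous hearts, a difference of 0.72 on the log2 scale (standard error 0.17, limma adjusted p = 0.308). *Hhex*, a homeobox factor, followed at 0.44 (standard error 0.17), and *Ets1* and *Epas1*, at -0.26 and -0.20, were the lowest of those that did not overlap. Of 15 tested Notch and BMP pathway genes 1 was lower (6.67%) and 4 were higher (26.7%) in both, beside the same shares. *Dll1*, a Notch ligand, was at 1.87 and 1.74 against 3.58 and 3.23 (0.65, standard error 0.13, adjusted p = 0.286), and *Hes1*, a Notch target, at 3.91 and 3.51 against 5.98 and 5.04 (0.46, standard error 0.15, adjusted p = 0.346). *Klf2*, *Dll1* and *Hes1* stayed above 0 with TPM as deposited, at 0.34, 0.34 and 0.10.

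Lists for parts of the vessel bed were short. Of 10 tested arterial genes 3 were lower and 1 was higher in both heterozygous hearts (median -0.06), beside 23.3% and 23.7% of all tested genes. The 3 include *Unc5b*, at 1.41 and 1.35 TPM as deposited in wild-type and 0.75 and 0.81 in heterozygous hearts. It passed the filter on low values only through the wild-type hearts. The arterial differences were led by the chemokine gene *Cxcl12* (-0.38, standard error 0.18) and the kinase gene *Bmx* (0.38, standard error 0.14). Of 6 tested venous genes 1 was lower (*Vcam1*, -0.24, standard error 0.14), and of 5 tested endocardial genes 1 was lower (*Postn*, -0.22, standard error 0.14). Of 4 tested lymphatic genes *Ccl21a* was lower (-0.63, standard error 0.20) and *Thy1*, which other cells make as well, was higher (0.83, standard error 0.19). None of these genes reached an adjusted p under 0.05.

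**Figure D5:**
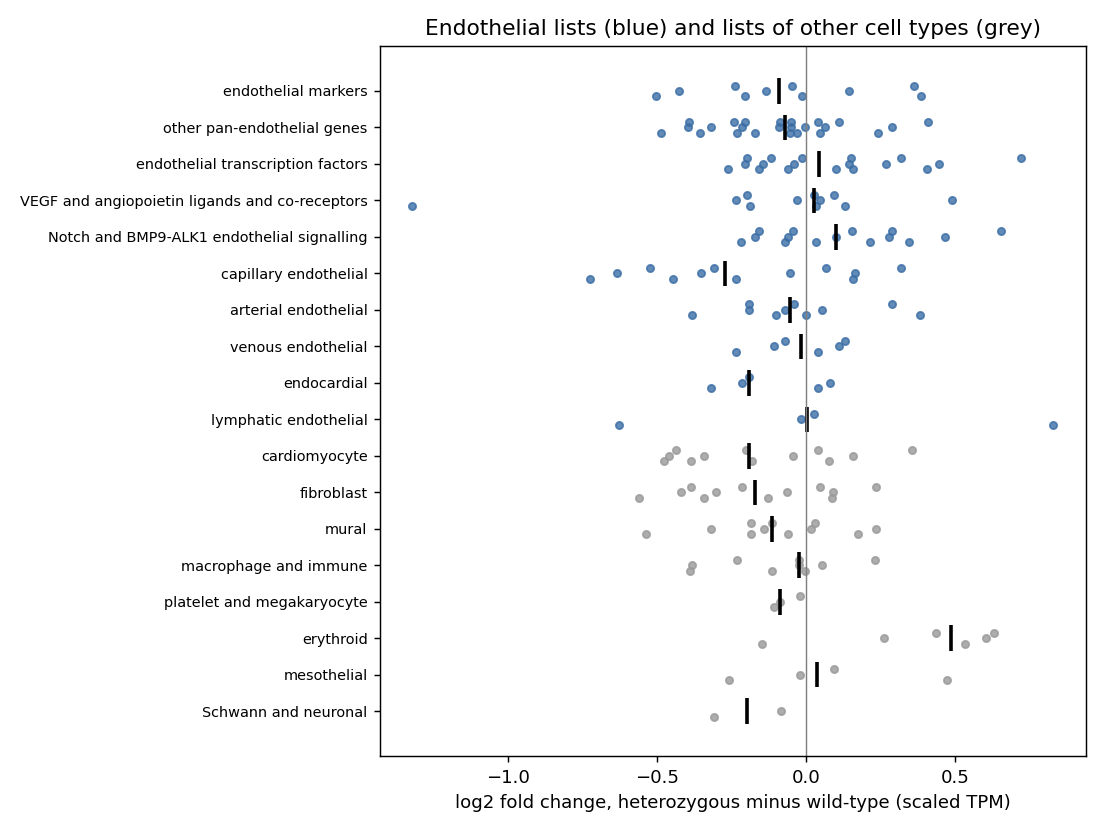
Log2 fold change (heterozygous minus wild-type, scaled TPM) of every tested gene in the endothelial lists (blue) and the lists of other cell types (grey), with the median of each list as a bar. The endothelial markers lie on both sides of 0 with a median of -0.09, and the capillary list has a median of -0.27.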

How the data were processed

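RNA-seq of 4 hearts was used, grouped by the genotype in the labels. The authors trimmed reads with Trim Galore, aligned them to mm10 with STAR and quantified genes with RSEM, and deposited TPM rounded to 2 decimals. The annotation release is not given in the sources used here. Depth is unknown. The authors ran DESeq2 on counts, which were not used here.

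Factors were medians of ratios over genes with a mean of at least 1 TPM and above 0 in every library. Log2(scaled TPM + 1) was fitted with limma (3.58.1, R 4.3.3; genotype only, empirical Bayes with trend, two-sided), so fold changes of low genes are understated. The model was tested on simulated data. Correlations between libraries were 0.966 to 0.981, so none was a copy. Gene coordinates are from GENCODE M21 (mm10; 55141 identifiers matched without version). Tables were made with Python (3.11.15).

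Members and lists were chosen with earlier results of these data known. Named genes are the members, *Ctcf*, and from each list called genes and up to 2 with the largest difference each way whose genotypes did not overlap. Some other genes are named for their role, to fill out a count, or because the filter on low values kept them only through the wild-type hearts. Gene roles are background.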

Additional observations from a re-analysis of the deposited data

How the results depend on the processing

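No endothelial marker was called under any alternative run, but the sign turned for *Tie1*, *Vwf*, *Egfl7*, *Cdh5*, *Emcn* and *Tek* under some. With TPM as deposited, *Tie1* was at -0.28, *Vwf* at -0.062 and *Egfl7* at -0.058, and with mt- genes removed *Tie1* was at -0.18. Leaving out each heart in turn, *Cdh5* ran from -0.109 to 0.075 (above 0 without wild-type replicate 2, and 0.00081 without heterozygous replicate 1), *Emcn* from -0.333 to 0.064 (above 0 without heterozygous replicate 1) and *Tek* from -0.106 to 0.0079 (above 0 without wild-type replicate 1). *Pecam1* ran from -0.58 (without heterozygous replicate 2) to -0.27 (without heterozygous replicate 1), *Cldn5* from -0.67 to -0.34 (without wild-type replicates 1 and 2 in turn) and *Kdr* from -0.30 to -0.11 (without heterozygous replicates 1 and 2 in turn). The markers' median was -0.49 for TPM as deposited and -0.42 after removal of mt- genes, where the medians of all genes were -0.35 and -0.31, and ran from -0.13 to -0.00454 with each heart left out, the last without heterozygous replicate 1. The ratio of the summed markers (heterozygous over wild-type, 1.19 with all 10 genes) was 0.875 with TPM as deposited, 0.942 as a geometric mean, 1.05 relative to cardiomyocyte markers and, added after the values were seen, 0.962 without *Egfl7*; with each heart left out it ran from 1.11 to 1.28.

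Over all tested genes the 2 calls became 4 at pseudocount 0.1, 0 by limma when low genes were kept (24424 genes, of which 2134 had an unadjusted p under 0.05), 13 with TPM as deposited (11 lower), 14 with mt- genes removed (12 lower) and between 11 and 16 with 1 heart left out, where the lone heart is assumed to vary like the others. A correction for GC content and transcript length, added after the values were seen, gave 2 calls and a marker median of -0.09. In the other lists 1 gene, *Angptl4*, was called with TPM as deposited. The filter on low values kept it only through the wild-type hearts, so that call is no support for a difference. Same-numbered hearts share only a number: their deviations correlated at 0.101, and with the replicate block 10 genes were called, none of them a member (smallest adjusted p of a member 0.302). *Flt1* was under the filter at a mean TPM of 5.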
